A study of Mus musculus with 8 samples.

Results

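The genes described here were 4 gap junction connexins of skin, Gja1 (connexin 43), Gjb2 (connexin 26), Gjb6 (connexin 30) and Gjb5 (connexin 31.1). They were taken from the deposited table as the rows whose gene symbol equals one of these names, which gave 4 of 36333 genes and 4 of the 20 connexin genes in the table. RNA-seq was performed on whole skin of male C57BL/6J mice, aged 8 weeks per the labels, in 2 groups of 4 libraries. The study asked what the loss of Nampt, the rate-limiting enzyme of NAD+ salvage, does to skin. Nampt-cKO mice were Nampt flox/flox and carried KRT5-CreERT2, and they received tamoxifen at 100 μg per g body weight once daily for 5 days. Control mice were Nampt flox/flox. The labels describe tamoxifen for the cKO mice only, whereas the study's time line of the experiment gives it for both groups and its methods state it for the controls of the UVB experiment, so the controls are not to be read as untreated. Both groups thus carried the floxed allele, and the strain, sex and age were shared. The study's methods give 8 weeks as the age of the cKO mice at tamoxifen and place the RNA-seq on Day 19. By these methods the skin was taken later than at 8 weeks of age. The Cre is driven by the keratin 5 promoter, so that the deletion is directed to basal keratinocytes, while whole skin also holds dermal, immune, fat and muscle cells. In bulk skin, fewer cells of a type and less RNA per cell cannot be told apart. The labels do not state that the 4 libraries of a group came from separate mice, so p-values measure the spread between these libraries, which may be technical.

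Connexins are membrane proteins that assemble as hexamers into hemichannels, and hemichannels of neighbouring cells dock into gap junctions through which ions and small metabolites pass. Unpaired hemichannels can release ATP to the outside. Epidermis expresses several connexins in a layered pattern: Gja1 is the most widespread of them, Gjb5 is a connexin of stratified epithelia, and Gjb2 and Gjb6 are low in resting interfollicular epidermis and are known to be induced in hyperproliferative and wounded epidermis. In humans, mutations of GJB2 and GJB6 cause hearing loss and disorders of cornification.

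The 250 bases upstream of the annotated start of each gene are shown because 2 of the genes, Gjb2 and Gjb6, lie side by side and moved together, and because the 4 upstream regions can be read beside the direction in which each gene moved. The sequences are from RefSeq (GRCm38.p6), are written 5′ to 3′ in the direction of transcription, and matched all 4 genes by symbol. Capitals mark matches, on either strand, to an AP-1, GC box, TATA box, NF-kB or CCAAT motif. Where capitals run on, 2 matches overlap.
Gjb2 (chr14:57104703-57104952, - strand): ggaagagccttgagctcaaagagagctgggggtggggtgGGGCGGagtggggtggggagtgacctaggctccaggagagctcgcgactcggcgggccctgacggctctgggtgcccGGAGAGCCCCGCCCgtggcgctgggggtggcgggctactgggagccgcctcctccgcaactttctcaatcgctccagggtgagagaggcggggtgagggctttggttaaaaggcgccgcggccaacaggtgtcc
Gjb6 (chr14:57133612-57133861, - strand): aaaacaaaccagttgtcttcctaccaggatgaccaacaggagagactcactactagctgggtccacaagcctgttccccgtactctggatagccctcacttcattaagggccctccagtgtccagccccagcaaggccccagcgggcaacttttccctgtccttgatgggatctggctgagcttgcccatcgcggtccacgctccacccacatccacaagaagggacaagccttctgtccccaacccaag
Gja1 (chr10:56377050-56377299, + strand): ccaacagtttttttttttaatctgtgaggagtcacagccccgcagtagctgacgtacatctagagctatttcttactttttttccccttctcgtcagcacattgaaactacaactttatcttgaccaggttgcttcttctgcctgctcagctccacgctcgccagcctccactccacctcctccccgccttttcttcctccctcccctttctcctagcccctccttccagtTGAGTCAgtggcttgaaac
Gjb5 (chr4:127358165-127358414, - strand): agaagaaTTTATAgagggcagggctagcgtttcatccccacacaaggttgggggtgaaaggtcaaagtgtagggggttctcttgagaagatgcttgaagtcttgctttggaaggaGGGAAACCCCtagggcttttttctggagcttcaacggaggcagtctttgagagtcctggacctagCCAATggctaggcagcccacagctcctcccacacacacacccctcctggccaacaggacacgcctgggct
AP-1 was searched as TGANTCA. The Gja1 window held 1 match, which began 19 bases before the start, and of 32851 RefSeq upstream windows of the same length, 6.75% held such a match. The GC box was searched as GGGCGG. The Gjb2 window held 2 matches, beginning 211 and 126 bases before the start, and 32.7% of all windows held at least 1. It was also GC-rich, with 69.2% G or C and 18 CpG dinucleotides, beside medians of 52.4% and 6 over all windows. The TATA box was searched as TATAAA. The Gjb5 window held 1 match, on the opposite strand, beginning 243 bases before the start, and 12.4% of all windows held at least 1. The CCAAT letters began 70 bases before the start of Gjb5 and were held by 33.8% of all windows. The NF-kB consensus was found 1 time in the Gjb2 window, beginning 134 bases before the start and sharing bases with the nearer GC box, and 1 time in the Gjb5 window, beginning 135 bases before the start, and 7.25% of all windows held it. The Gjb6 window held none of these motifs. A match describes letters only.

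Libraries held 39390895 to 52672388 exon reads in Nampt-cKO skin and 41206078 to 53762935 in control skin. Nampt, the deleted gene, was at 32.3, 37.5, 76.1 and 49.6 CPM (exon reads scaled to a common library size, TMM-normalized) in the libraries labelled Nampt-cKO replicates 1 to 4, against 77.7, 72.9, 71.0 and 60.4 CPM in controls 1 to 4. The library labelled Nampt-cKO replicate 3 was thus at the control level for Nampt, so these values do not show the deletion in it. Whole skin also holds cells that the Cre is not directed to, and their part in this level was not tested. For all 4 connexins, however, replicate 3 was the Nampt-cKO library furthest from the controls. Nampt-cKO replicate 1, the lowest in Nampt, was the nearest to them. The log2 fold change of Nampt was −0.53 (edgeR quasi-likelihood test, Benjamini-Hochberg adjusted p = 0.0974) with all libraries. It was −0.83 (edgeR, adjusted p = 0.00284) without Nampt-cKO replicate 3. Results for the connexins are therefore given with and without it. The same edgeR test was fitted on all 17286 genes that passed the filter on low counts, and an adjusted p under 0.05 is called past the test.

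All 4 connexins passed the filter and the test. Gjb2, Gjb6 and Gja1 rose in Nampt-cKO skin and Gjb5 fell. Over all genes tested, 45.7% passed the test, with 23.8% higher and 22.0% lower. The CPM ranges of the groups did not overlap for any of the 4, as for 45.3% of all genes tested, with 23.0% higher and 22.4% lower. With calls this common in the table, the share of these 4 genes that passed is not a result about them, and the size and the rank of each change are given instead.

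Gjb2, which encodes connexin 26, was at 128, 517, 619 and 383 CPM in Nampt-cKO libraries 1 to 4. It was at 6.26, 9.49, 5.89 and 7.46 CPM in control libraries 1 to 4. The lowest Nampt-cKO library, replicate 1, stood far above the highest control. The log2 fold change was 5.82 (standard error 0.48, a 56.5-fold change, edgeR adjusted p = 3.07e-05), and Gjb2 ranked 69 from the top among 17286 genes ordered by log2 fold change. Without the library labelled Nampt-cKO replicate 3, the log2 fold change was 5.54 (edgeR adjusted p = 5.8e-05). The gene lies on chr14:57098602-57104702, on the − strand, with 2404 bases of exon. The count rested on 79121 exon reads over the Nampt-cKO libraries and 1450 over the controls.

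Gjb6, which encodes connexin 30, a partner of connexin 26 in mixed channels of the cochlea, was at 6.11, 58.0, 65.5 and 17.9 CPM in Nampt-cKO libraries 1 to 4, against 3.07, 2.97, 2.49 and 4.48 CPM in control libraries 1 to 4. Replicates 2 and 3 were high, replicate 4 was intermediate, and replicate 1 was just above the highest control. The log2 fold change was 3.50 (standard error 0.66, an 11.3-fold change, edgeR adjusted p = 0.00224), at rank 159 from the top. It was 3.05 (edgeR adjusted p = 0.00468) without the library labelled Nampt-cKO replicate 3, and 3.86 (edgeR adjusted p = 0.00011) without Nampt-cKO replicate 1. Gjb6 lies on chr14:57123301-57133611, on the − strand, with 2726 bases of exon, and the count rested on 7262 reads over the Nampt-cKO libraries and 639 over the controls.

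Gja1, which encodes connexin 43, was at 285, 482, 563 and 454 CPM in Nampt-cKO libraries 1 to 4. It was at 176, 199, 198 and 250 CPM in control libraries 1 to 4. Nampt-cKO replicate 1 was again closest to the controls, and its value stood above the highest control, replicate 4. The log2 fold change was 1.11 (standard error 0.19, a 2.16-fold change, edgeR adjusted p = 0.00144), at rank 1395 from the top. Without the library labelled Nampt-cKO replicate 3, it was 0.97 (edgeR adjusted p = 0.00306). Gja1 lies on chr10:56377300-56390419, on the + strand, with 3105 bases of exon.

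Gjb5, which encodes connexin 31.1, was at 33.6, 18.2, 10.6 and 12.8 CPM in Nampt-cKO libraries 1 to 4, against 89.6, 83.0, 95.9 and 78.7 CPM in control libraries 1 to 4. The highest Nampt-cKO library, replicate 1, was below every control. The log2 fold change was −2.20 (standard error 0.32, a 4.61-fold decrease, edgeR adjusted p = 0.000536), at rank 673 from the bottom. Without the library labelled Nampt-cKO replicate 3, it was −2.01 (edgeR adjusted p = 0.000878). Gjb5 lies on chr4:127354809-127358164, on the − strand, with 1704 bases of exon.

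**Figure D1:**
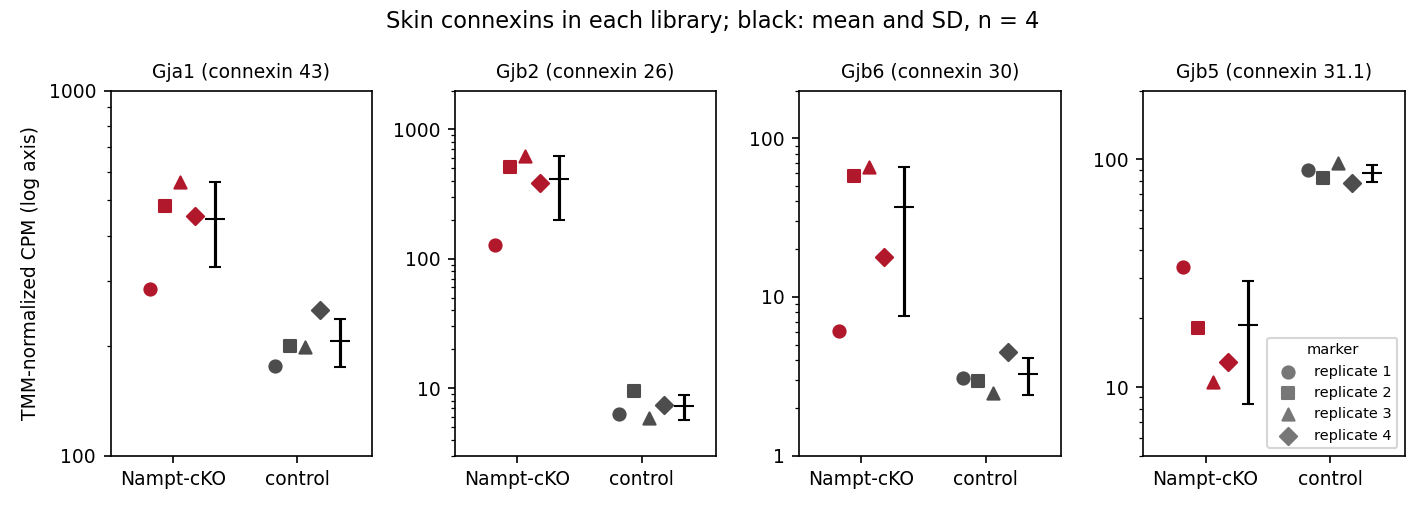
TMM-normalized CPM (log axis, a separate range in each panel) of Gja1, Gjb2, Gjb6 and Gjb5 in the 4 Nampt-cKO libraries (red) and the 4 control libraries (grey), with marker shape for the replicate and a black bar for the mean and SD of the linear values. In each panel Nampt-cKO replicate 1 is the red point nearest to the controls, at 6.11 CPM for Gjb6, where the highest control was at 4.48 CPM.

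The groups also differed in how widely the libraries were spread. Gjb2 averaged 412 ± 212 CPM in Nampt-cKO skin and 7.28 ± 1.62 CPM in control skin (SD, n = 4 each). Gjb6 averaged 36.9 ± 29.3 CPM in Nampt-cKO skin and 3.25 ± 0.857 CPM in control skin. Gja1 averaged 446 ± 117 CPM in Nampt-cKO skin and 206 ± 31.3 CPM in control skin, and Gjb5 averaged 18.8 ± 10.3 CPM in Nampt-cKO skin and 86.8 ± 7.54 CPM in control skin. Among the Nampt-cKO libraries, Gjb2, Gjb6 and Gja1 were highest in replicate 3 and lowest in replicate 1, and Gjb5 was lowest in replicate 3 and highest in replicate 1. Permuting the CPM values between the groups gave a two-sided exact p = 0.0286 for each of the 4 genes, the smallest that the 70 splits of 4 against 4 libraries allow. Ranges that do not overlap always give this value, and 45.3% of all genes tested had such ranges, so it adds nothing to the ranges.

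Levels of different genes were compared per length, as the authors' RPKM. In Nampt-cKO skin the order of mean RPKM was Gjb2 (139), Gja1 (117), Gjb6 (10.98) and Gjb5 (9.13). In control skin it was Gja1 (57.4), Gjb5 (44.1), Gjb2 (2.62) and Gjb6 (1.03). The RPKM ratio of Gjb2 to Gja1 was 0.579, 1.38, 1.42 and 1.09 in Nampt-cKO libraries 1 to 4, so that Gjb2 stood above Gja1 in 3 of the 4, and it was 0.0459, 0.0615, 0.0384 and 0.0385 in controls 1 to 4. The ratio of Gjb2 to Gjb6 was 10.1 to 24.3 in Nampt-cKO skin and 1.89 to 3.63 in control skin, without overlap. The neighbours in order were not separated in every library: in Nampt-cKO skin the Gjb6 level was below that of Gjb5 in replicates 1 and 4, with ratios of 0.114 and 0.870, and above it in replicates 2 and 3, with ratios of 1.99 and 3.87.

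The make-up of the whole connexin family shifted with these genes. The RPKM summed over all 20 connexins was 229, 389, 425 and 307 in Nampt-cKO libraries 1 to 4 and 206, 215, 216 and 211 in controls 1 to 4. Gjb2 made up 19.9%, 44.9%, 49.6% and 40.5% of that sum in Nampt-cKO libraries 1 to 4, against 1.09%, 1.59%, 0.989% and 1.26% in controls. Gjb5 made up 7.38%, 2.23%, 1.19% and 1.91% in Nampt-cKO libraries and 22.0%, 19.6%, 22.7% and 18.8% in controls. Gjb6 remained a small part, at 0.840% to 4.62% in Nampt-cKO skin and 0.369% to 0.669% in control skin. Although the Gja1 level rose, its share overlapped between the groups, at 32.4% to 37.1% in Nampt-cKO skin and 23.8% to 32.8% in control skin. The other 16 connexins together made up 9.75% to 37.5% in Nampt-cKO skin and 46.5% to 52.6% in control skin. Gjb2 and Gjb6 together made up 20.8% to 54.2% in Nampt-cKO skin and 1.36% to 2.03% in control skin. These shares are descriptions of the libraries and carry no test.

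**Figure D2:**
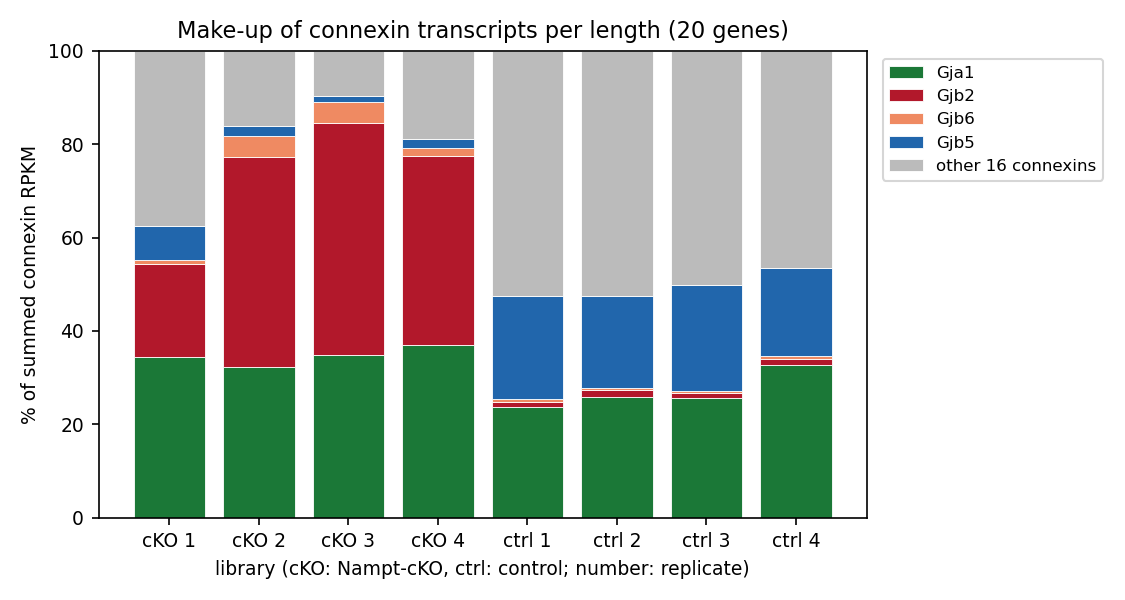
Share of the summed RPKM of 20 connexin genes (y axis, %) taken by Gja1, Gjb2, Gjb6 and Gjb5 and by the other 16 together, in each of the 4 Nampt-cKO libraries (left) and the 4 control libraries (right). Gjb2 takes 19.9% to 49.6% in Nampt-cKO libraries and 0.989% to 1.59% in controls, while Gjb5 takes 1.19% to 7.38% in Nampt-cKO libraries and 18.8% to 22.7% in controls.

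Of the other 16 connexins, 9 passed the filter on low counts, and of these 2 rose, 3 fell and 4 missed the threshold, so that 5 of 9 passed the test where 45.7% of all genes tested did. Their median log2 fold change was 0.07, beside −0.01 over all genes tested. The connexins of this set described here were low in whole skin. Gja5, a connexin of arterial endothelium, was at 2.35 to 8.08 CPM in Nampt-cKO skin and 2.20 to 2.58 CPM in control skin, with overlap (log2 fold change 1.04, edgeR adjusted p = 0.0387). Gjc1, a connexin of vascular smooth muscle, was at 6.39 to 9.60 CPM in Nampt-cKO skin and 5.20 to 6.18 CPM in control skin (log2 fold change 0.58, edgeR adjusted p = 0.0228). Gja5 lost its call in 9 of 19 alternative analyses and Gjc1 in 6 of 20. Gja4, another endothelial connexin, had a log2 fold change of 0.44 (edgeR adjusted p = 0.119), and Gjc3 and Gjd3 did not pass either. Gjb1 narrowly missed the threshold (log2 fold change 0.93, edgeR adjusted p = 0.052), at 0.963 to 1.90 CPM in Nampt-cKO skin and 0.570 to 0.946 CPM in control skin. It passed in some of 19 alternative analyses, DESeq2 and limma-voom among them. The other 7, Gja3 and Gja6 among them, did not pass the filter.

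**Figure D3:**
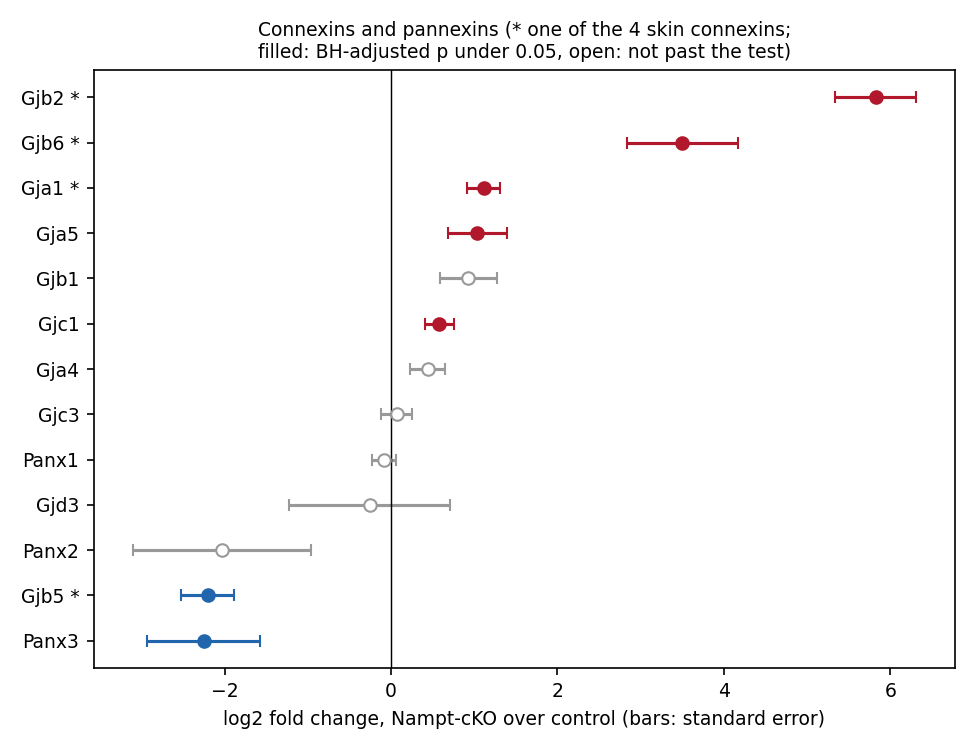
Log2 fold change of Nampt-cKO over control (x axis) with its standard error for the 4 connexins Gja1, Gjb2, Gjb5 and Gjb6 and for other connexins and the 3 pannexins named in the text, ordered by size, with filled points for genes past edgeR's test at an adjusted p under 0.05 and open points for the rest. Gjb2 at 5.82 and Gjb6 at 3.50 stand at the top, and Gjb5 at −2.20 is beside Panx3 at the bottom.

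Gjb2 and Gjb6 lie in 1 cluster of connexin genes and rose together. This view was chosen after the values were seen. They are on the same strand of chromosome 14, separated by 18598 bases. Gja3, a lens connexin 40571 bases from Gjb2 on the other side, had a mean of 0.0278 CPM in Nampt-cKO skin and 0.0426 CPM in control skin and was not tested. Gja4, 40769 bases from Gjb5 on chromosome 4, did not pass the test. Within 100 kb of Gja1, Gjb2 and Gjb6, no gene passed the test apart from Gjb2 and Gjb6 themselves and Gja1. Whether counting used strand is not given in the sources used here, so reads of a gene and of a transcript on the opposite strand cannot be told apart. Gm32912, annotated 162 bases from Gjb2, averaged 0.475 CPM in Nampt-cKO skin and 0.131 CPM in control skin.

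Reads in introns and across exon junctions were examined as readouts beside the exon count. All exon reads of the 4 genes were uniquely mapped in every library. Reads in introns of Gjb2 numbered 2082 over the Nampt-cKO libraries and 22 over the controls. For Gjb6 they numbered 1008 in Nampt-cKO skin and 104 in control skin, and for Gja1 950 in Nampt-cKO skin and 292 in control skin. For Gjb5 they numbered 30 in Nampt-cKO skin and 67 in control skin. These sums, not scaled to library size and not tested, went in the direction of the exon reads for each gene. For Gjb5 they rest on few reads. As a share of all gene reads, intron reads took 1.35% to 3.24% of Gjb2 in Nampt-cKO skin and 0.544% to 2.56% in control skin. They took 9.58% to 17.9% of Gjb6 in Nampt-cKO skin and 6.78% to 22.8% in control skin. The shares overlapped for all 4 genes, and exact two-sided permutation tests gave p = 0.114 for Gja1, 0.20 for Gjb2, 0.314 for Gjb5 and 1.0 for Gjb6, with Benjamini-Hochberg adjusted values of 0.40 to 1.0 over the 4 tests. Over all genes, introns took 12.7% to 16.5% of gene reads in Nampt-cKO libraries and 10.8% to 11.8% in controls.

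Pannexins form similar channels that do not usually dock, and release ATP. Panx1, the most widespread of them, was at 19.1 to 30.5 CPM in Nampt-cKO skin and 24.6 to 26.8 CPM in control skin (log2 fold change −0.08, edgeR adjusted p = 0.666). Panx3 was at 5.74, 0.288, 1.30 and 2.03 CPM in Nampt-cKO libraries 1 to 4 and at 11.1, 14.8, 11.01 and 7.88 CPM in controls. Its log2 fold change was −2.25 (edgeR adjusted p = 0.0223), and the call was lost without Nampt-cKO replicate 3 (adjusted p = 0.0516, edgeR), without Nampt-cKO replicate 4 and without control replicate 2. Panx2 was below 1 CPM in every library and did not pass the test.

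Of 13 genes that sense or degrade extracellular ATP and adenosine, 2 rose, 2 fell and 9 missed the threshold, with a median log2 fold change of −0.05. These 4 of 13 were a smaller share than the 45.7% of all genes tested that passed. P2ry2, a receptor for ATP and UTP, rose to 5.39, 10.3, 15.8 and 10.1 CPM in Nampt-cKO libraries 1 to 4, against 2.21, 1.70, 2.32 and 1.55 CPM in controls (log2 fold change 2.42, edgeR adjusted p = 0.000336). P2ry4, another nucleotide receptor, fell to 4.78, 3.83, 2.14 and 4.38 CPM in Nampt-cKO libraries, against 29.6, 24.0, 24.7 and 24.97 CPM in controls (log2 fold change −2.77, edgeR adjusted p = 3.7e-05). The groups overlapped for neither receptor. Adora2b, an adenosine receptor, fell (log2 fold change −1.33, edgeR adjusted p = 0.000173), and Entpd3, an ectonucleotidase, rose (log2 fold change 1.11, edgeR adjusted p = 0.0120).

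Of 21 genes for proteins that bind, phosphorylate or traffic connexins, chiefly connexin 43, 7 rose, 4 fell and 10 missed the threshold, with a median log2 fold change of −0.03. These 11 of 21 were near the share over all genes tested, of which 45.7% passed, so the counts are not a result about these genes. Among the kinases that phosphorylate connexin 43, Akt1 (log2 fold change 0.73), Prkca (0.85), Csnk1d (0.55) and Src (0.42) rose and Mapk3 (−0.57) fell, with edgeR adjusted p-values of 0.000498 for Akt1, 0.000587 for Prkca, 0.00242 for Csnk1d, 0.00326 for Src and 0.000726 for Mapk3. The adaptor Ywhaq (0.49), the ubiquilin Ubqln4 (0.49), a factor of connexin turnover, and the junction protein Ctnnb1 (0.27) also rose on the log2 scale. The Ctnnb1 call was lost in 2 of 20 alternative analyses, both limma fits on log2 RPKM. Cnst, consortin, which takes part in the delivery of connexins to the plasma membrane, fell to 50.3 to 56.8 CPM in Nampt-cKO skin, against 87.0 to 118 CPM in control skin (log2 fold change −0.91, edgeR adjusted p = 0.000118). Cav1, caveolin, fell by 0.97 on the log2 scale (edgeR adjusted p = 0.00119). Tjp1, the scaffold that binds connexin 43 at the edge of the gap junction, had a log2 fold change of −0.07 (edgeR adjusted p = 0.582).

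Some keratinocyte markers moved beside the connexins. Krt5 and Krt14 were abundant in every library, as the label of skin implies. Others were not, such as Krt2 (0.124 to 8.65 CPM in Nampt-cKO skin) and Krt6b (0.265 to 0.816 CPM in control skin). All 4 stress keratins (Krt6a, Krt6b, Krt16 and Krt17) were higher, and their summed level was 8575, 19950, 18580 and 13870 CPM in Nampt-cKO libraries 1 to 4 and 1982 to 2088 CPM in controls. As for Gjb2, Gjb6 and Gja1, the lowest Nampt-cKO library was replicate 1, followed by replicate 4. The highest was replicate 2 for the summed stress keratins, but replicate 3 for these connexins. Of 10 spinous and granular markers, 6 were lower (Krt10, Krtdap, Ivl, Lor, Flg2 and Dsg1a), none was higher, and the sum was 2940 to 9391 CPM in Nampt-cKO skin and 18530 to 20210 CPM in control skin. Of 8 basal markers, 3 rose and 5 missed the threshold, and the sums overlapped, at 21830 to 28870 CPM in Nampt-cKO skin and 20040 to 22460 CPM in control skin. Over all genes tested, 45.7% passed the test, with 23.8% higher and 22.0% lower, so counts near these shares are not a result about the markers. The part of these markers in the connexin results was not tested.

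The connexin levels were therefore also set against single keratins, a choice made after the values were seen. Krt5, the basal keratin whose promoter drives the Cre, had a log2 fold change of 0.18 (edgeR adjusted p = 0.216). Other basal keratins moved more, Krt14 by 1.86 (edgeR adjusted p = 0.000308) and Krt15 by −1.31 (edgeR adjusted p = 0.0868). Ratios to Krt14 and Krt15 were not taken, so each ratio below holds only for the gene it is set against. Relative to Krt5 RPKM, Gjb2 was 0.0126 to 0.0752 in Nampt-cKO skin and 0.000742 to 0.00108 in control skin, and Gjb5 was 0.00181 to 0.00467 in Nampt-cKO skin and 0.0133 to 0.0173 in control skin. Gjb6 relative to Krt5 did not overlap either, at 0.000532 to 0.00701 in Nampt-cKO skin and 0.000281 to 0.000488 in control skin. Gja1 relative to Krt5 did overlap, at 0.0218, 0.0339, 0.0529 and 0.0431 in Nampt-cKO libraries 1 to 4 and 0.0162, 0.0176, 0.0196 and 0.0239 in controls 1 to 4, with Nampt-cKO replicate 1 below control replicate 4. Relative to Krt10, a keratin of the spinous layer that itself fell (log2 fold change −2.26, edgeR adjusted p = 0.000283), Gjb5 was 0.0234, 0.00925, 0.00926 and 0.0209 in Nampt-cKO libraries 1 to 4 and 0.0131 to 0.0156 in controls. These ratios overlapped, with 2 Nampt-cKO libraries above and 2 below the controls. Krt1, a marker of the same spinous and granular list, did not pass the test (log2 fold change −0.24, edgeR adjusted p = 0.70), and no ratio to it was taken. Relative to Ivl, involucrin, Gjb5 was at 0.886, 0.391, 0.255 and 0.395 in Nampt-cKO libraries 1 to 4 and 0.627 to 0.822 in controls, so that only Nampt-cKO replicate 1 was not below the controls.

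Some markers of other cells that can express connexins moved as well. The counts below stand beside 23.8% of all genes tested that were higher and 22.0% that were lower. Counts near these shares are not a result about a cell type. All 5 melanocyte markers were higher (summed 63.9 to 139 CPM in Nampt-cKO skin and 31.1 to 56.9 CPM in control skin). Of 5 neutrophil markers tested, 4 were higher, 2 of which, S100a8 and S100a9, are also expressed by stressed keratinocytes, and 1, Mmp9, was lower (summed 33.7 to 729 CPM in Nampt-cKO skin and 16.4 to 23.1 CPM in control skin). Ly6g, a defining neutrophil marker, was at 0 in all controls and at most 0.156 CPM in Nampt-cKO skin. Of 6 macrophage markers, 3 were higher and 1 lower, with sums that overlapped (166 to 482 CPM in Nampt-cKO skin and 146 to 270 CPM in control skin). Of 6 fibroblast markers, 1 was higher and 3 were lower (summed 2184 to 4070 CPM in Nampt-cKO skin and 5050 to 7873 CPM in control skin). Of 6 endothelial markers, 1 was lower, with overlapping sums (170 to 411 CPM in Nampt-cKO skin and 230 to 268 CPM in control skin), and of 5 smooth muscle markers 3 were lower, with overlapping sums (376 to 1163 CPM in Nampt-cKO skin and 930 to 1277 CPM in control skin). The 4 tested T cell markers and 4 of 5 Langerhans cell markers were lower, as were 4 of 6 sebaceous gland markers. None of 6 skeletal muscle markers passed the test, and their sum varied from 86.7 to 3130 CPM in Nampt-cKO skin and from 157 to 2076 CPM in control skin. Of 8 hair follicle markers tested, 3 were lower, of 6 adipocyte markers 2 were lower, and of 5 nerve and Schwann cell markers 1 was higher and 1 was lower. None of 5 red blood cell markers passed the test. Trac was at 0 in every library. The part of these cells in the connexin results was not tested.

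Genes whose profile was most like that of each connexin were found over the 8 libraries, as the smallest root mean square (RMS) difference between log2 CPM profiles, each centred on its own mean, among 13762 genes with a mean of at least 1 CPM. For Gjb2 they were Klk6, a kallikrein protease (RMS difference 0.418), Sh2d5, BC117090, Cxcl13, a B cell chemokine, and Prok2, beside a median of 2.89 over all genes compared. For Gjb6 they were E2f7, a transcription factor of the cell cycle (0.381), Prss27, Fetub, and the kallikreins Klk14 and Klk12, beside a median of 1.81. For Gja1 they were Tnfrsf23 (0.0843), Ier5, Zmynd19, Fam43a and Pfdn4, beside a median of 0.663. For Gjb5 they were Olfm2 (0.163), Gal3st4, Camkk1, Ltc4s, the leukotriene C4 synthase, and BC064078, beside a median of 1.29. Gjb6 was in place 104 in likeness to Gjb2, with an RMS difference of 1.41. In likeness to Gjb6, Gjb2 was only in place 1254, and Gja1, on another chromosome, was nearer, in place 523 with an RMS difference of 1.22. The likeness is mostly set by the group difference and is a description with no test. The log2 CPM profiles include a prior count of 2, which narrows differences at low levels. Genes named as like a connexin can thus differ from it in log2 fold change. In the edgeR fit this was 10.6 for BC117090 and 8.36 for Prok2, against 5.82 for Gjb2. It was 5.11 for Klk6 and 6.03 for both Sh2d5 and Cxcl13.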

How the data were processed

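Poly-A selected RNA of whole skin, sequenced on an Illumina instrument, was analysed from 1 table that the authors deposited. Per the file headers it gives, for each gene and library, counts of reads in exons (total and unique), genes, introns and exon junctions, with no normalization, and the authors' RPKM, that is, exon reads divided by the exon length and by a read total of the library. The labels name the build, GRCm38 (mm10). Neither the aligner nor the counter is named in the sources used here. Starts were read as counted from 0, since 17987 of 23233 genes with the RefSeq end begin 1 below RefSeq, and are printed counted from 1. Columns with a comparison made by the authors (p-values, fold changes) were left out.

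Total exon counts were fitted in R 4.3.3 by edgeR 4.0.16 (normalized by TMM, filtered by filterByExpr at its defaults, quasi-likelihood test, condition only, Benjamini-Hochberg adjustment over 17286 genes, threshold 0.05), after a check on simulated data. The biological coefficient of variation was 0.283. A prior count of 2 was added for log2 CPM. Groups came from the genotype labels. Replicate libraries differed by more than sampling noise and each counted once. The 4 genes and the gene lists were chosen with earlier results of these data known. Named genes were the 4 connexins, Nampt, list members past the test or with a mean of at least 1 RPKM, of which the text gives a part since some are not reported here, and the 5 genes most like each connexin, predicted genes left out. The tests were repeated with DESeq2 1.42.0, with RLE factors, with upper-quartile factors, without factors, with limma 3.58.1 (voom with quality weights, and log2(RPKM + 0.1) and log2(RPKM + 1)), with no filter or a stricter one, on unique exon reads, on all gene reads, with the replicate number as a block, and without each library in turn. Tables, exact tests and plots were made in Python 3.11.15 (Matplotlib 3.10.9, SciPy 1.17.1, pandas 2.3.3 and NumPy 2.4.6).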

Additional observations from a re-analysis of the deposited data

How the results depend on the processing

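The 4 connexins kept their direction and stayed past the test in all 20 alternatives. Gja1 had log2 fold changes of 0.97 to 1.28, Gjb2 of 5.08 to 6.12, Gjb5 of −2.65 to −2.01 and Gjb6 of 2.17 to 3.86, and leaving out 1 library gave 0.97 to 1.28, 5.54 to 6.12, −2.65 to −2.01 and 3.05 to 3.86, with 4 of 4 called each time. Nampt passed the test with limma on log2(RPKM + 0.1) (−0.68), limma on log2(RPKM + 1) (−0.62) and limma-voom (−0.54), and without 1 library it was −0.83 to −0.38. Leaving out 1 library gave 2 to 6 other connexins and 0 to 1 pannexins past the test. The number of genes past the test was 6526 to 9009 over all alternatives. The cause of these changes was not tested.

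Replicate numbers do not mark a pair in the labels, and same-numbered libraries correlated at −0.05 to 0.18 after removing group means. With the replicate number as a block, log2 fold changes were 1.08 for Gja1, 5.64 for Gjb2, −2.35 for Gjb5 and 3.03 for Gjb6, each past the test.

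Genes near no change turned direction without passing the test: Gjc3 (−0.021 and −0.010 with limma on RPKM, −0.019 to 0.164 without 1 library), Smurf2 (−0.015 and −0.013 with limma on RPKM), and, without 1 library, Panx1 (−0.206 to 0.019), Dbn1 (−0.211 to 0.107), Nedd4 (−0.081 to 0.014), Wwp1 (−0.013 to 0.171), P2rx7 (−0.164 to 0.087) and P2ry1 (−0.171 to 0.041). Other scaling factors moved the median log2 fold change over all genes to between −0.06 and −0.01. It was −0.1 with limma on log2(RPKM + 0.1) and −0.05 with limma on log2(RPKM + 1). Gjb6 and Gjb2 in controls rest on 639 and 1450 reads over 4 libraries, and their log2 fold changes carry standard errors of 0.66 and 0.48.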
